A study of Mus musculus with 4 samples.

Results

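Desmosomes are junctions that tie the keratin filaments of neighbouring epithelial cells together. Desmosomal cadherins, the desmogleins and desmocollins, bridge the gap between cells, plakoglobin and the plakophilins bind their tails, and desmoplakin links these to keratin. In skin the cadherin isoforms follow the state of the keratinocyte: *Dsg3* and *Dsc3* belong to the lower layers, *Dsg2* and *Dsc2* are also found in simple epithelia and in the heart, and *Dsc1* is the desmocollin of the upper, differentiating layers. The 10 genes described here were *Dsp* (desmoplakin), *Pkp1*, *Pkp2*, *Pkp3* and *Pkp4* (plakophilins), *Dsg2* and *Dsg3* (desmogleins), and *Dsc1*, *Dsc2* and *Dsc3* (desmocollins). They were taken by gene symbol from the deposited table of the 2-d experiment, with a mean normalized count above 0 required. All 10 met this rule, among 17044 genes with a mean above 0 and 24421 genes listed.

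The cells were hair follicle stem cells (HF-SCs) of mouse back skin at postnatal day 44, labelled C57BL/6, from mice carrying a *K14-H2BGFP* allele. Live cells were sorted for high CD34, α6 integrin and H2BGFP and for the absence of Sca1. The series held 2 control libraries and 2 *miR-205*-induced libraries. In induced mice a *pTRE2-miR-205* transgene, made by injection into FVB mice, was switched on for 2 d by doxycycline through *Krt14*-rtTA, so that the miRNA could rise wherever the *Krt14* promoter is active. Controls were littermates; the labels call them untreated, whereas the protocol has both groups fed doxycycline. The genotype of the controls beyond this and the pooling of animals were not given in the sources used here.

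The value used was the mean normalized count of each gene over all 4 libraries. The table's columns on induced against control cells are the authors' own comparison and were not used here, so no difference between the groups is reported. A mean over counts divided by size factors is a sum of whole reads, each multiplied by a step that is fixed for its library. From this the reads of each library were recovered for all 13442 genes with a mean of 650 or below, each by a single combination of whole numbers. The libraries found this way are named A to D from the shallowest to the deepest. They carry no label, so none could be placed in a group, and their values are given one by one without a test. Their relative depths were 0.716, 0.966, 1.18 and 1.24, and the recovered genes held 1245417, 1714450, 2093477 and 2150974 reads.

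Markers of the labelled cell type were checked first. All 12 HF-SC markers had a mean above 50, beside 60.7% of all genes with a mean above 0. They ranged from *Fgf18* at 134 to *Krt5* at 146090, and *Cd34*, a surface marker of the sort, stood at 14575. The list also held *Itga6*, the α6 integrin of the sort, and *Krt5*, *Krt14* and *Krt15*, given below as basal keratins. Not all of its genes are thus particular to HF-SCs. All 7 suprabasal markers found, all 7 sebaceous and all 6 myeloid markers also passed 50, so this limit does not set HF-SC markers apart. Genes listed as markers of other cells were read too, and the source of these reads was not tested. The most abundant gene of each other list was *Sbsn* for suprabasal keratinocytes at 10749, *Col1a1* for fibroblasts at 5186, *Fasn* for sebaceous cells at 3913, *Cd74* for myeloid cells at 2744, *Dct* for melanocytes at 498, *Tchh* for inner root sheath at 139, *Tek* for endothelium at 51.3 and *Des* for muscle at 7.34. In the same order, the medians of these lists were 604, 2030, 172, 346, 219, 19.9, 33.3 and 3.00, beside 5597 for the HF-SC markers. *Ly6a*, which encodes the Sca1 used to exclude cells, had a mean of 136. In bulk RNA, fewer cells of a type and less RNA per cell cannot be told apart.

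The miRNA induced in these mice is printed because its seed, the bases that pair with a target, is what a search of the desmosome transcripts can use. It is shown 5′ to 3′ with bases 2 to 8 in capitals, from RefSeq on GRCm38.p6, where it lies on the minus strand at chr1:193507503-193507524.
miR-205-5p: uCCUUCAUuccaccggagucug

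A transcript pairs with these 7 seed bases where it reads ATGAAGG, and with bases 2 to 7 where it reads TGAAGG, which is contained in the longer match. Only the transcript strand was searched. In the longest annotated 3′UTR of each gene, ATGAAGG was present in 3 of the 10 desmosome genes, *Dsg2*, *Dsc1* and *Dsc2*, beside 11.7% of 15306 genes with a 3′UTR. The shorter TGAAGG was present in 6 of 10, with *Pkp1*, *Pkp2* and *Pkp4* added, beside 36.6% of genes. These letters were in neither form in the longest 3′UTRs of *Dsp* (645 bases), *Pkp3* (344 bases), *Dsg3* (1055 bases) and *Dsc3* (2442 bases), which are 4 of the 5 most abundant members. The 6 members with TGAAGG had longest 3′UTRs of 2377 (*Dsg2*), 1059 (*Dsc1*), 3121 (*Dsc2*), 2287 (*Pkp1*), 1442 (*Pkp2*) and 1953 bases (*Pkp4*). The median of the 15306 genes was 1092 bases, and the part of length in these shares was not tested.

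Which members held a match depended on the transcript chosen. For *Dsg2*, *Dsc1*, *Dsc2*, *Pkp2* and *Pkp4* the longest 3′UTR was not that of the transcript with the longest coding sequence, and it could cover coding exons of that transcript. In the 3′UTR of the transcript with the longest coding sequence, ATGAAGG was present in 2 of 10, *Pkp2* and *Dsg2*, beside 9.48% of genes, and TGAAGG in 4 of 10, beside 31.1%. In the shortest 3′UTRs ATGAAGG was present in *Pkp2*, *Pkp3* and *Dsc3*, beside 6.49% of genes. *Dsp* and *Dsg3* had no match under any of these choices. A match is a description of the letters and not a shown binding site.

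The windows below, of at most 30 bases, show the matches of the plakophilins in the transcripts with the longest coding sequence, with the pairing letters in capitals. They are DNA letters of the transcript strand on NCBIM37, in the 3′UTR of the last exon.
Pkp2: acaggacagagATGAAGGaataaagcatt
Pkp1: ttcccagaggcTGAAGGaagggaatttg
Pkp4: gagtctagtggTGAAGGtgtgggtgacg

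The *Pkp2* match is at chr16:16272775-16272781 on the plus strand, in exon 13 of 13, starting at base 445 of a 475-base 3′UTR. The *Pkp1* match is at chr1:137769494-137769499 on the minus strand, in exon 14 of 14, and a second one lies at base 2280 of the same 2287-base 3′UTR. The *Pkp4* match is at chr2:59192749-59192754 on the plus strand, in exon 22 of 22. The *Dsg2* match in its transcript with the longest coding sequence is at chr18:20761782-20761788 on the plus strand, in exon 15 of 15, starting at base 946 of a 2186-base 3′UTR. In *Pkp2*, in *Dsg2* and in the printed *Pkp1* window the next base is A, the letter that faces the first base of the miRNA.

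The desmosome genes spanned a wide range in these cells. Levels are compared between genes per kilobase of the longest annotated protein-coding transcript, as mean normalized count per kilobase. On this scale the order from high to low was *Dsp*, *Dsc3*, *Dsg3*, *Pkp3*, *Pkp1*, *Pkp4*, *Dsg2*, *Dsc1*, *Dsc2* and *Pkp2*, and the highest stood 2620-fold above the lowest. The 5 leading genes were at percentile 97.52 or higher of all genes with a length, and 8 of 10 were above the all-gene median of 54.9 per kilobase. That median includes genes with few reads. By mean, among the 10342 genes with a mean over 50, the 5 leading genes were at percentile 97.9 or higher. *Pkp4* was at 62.34 and *Dsg2* at 57.62 on that scale, whereas *Dsc1* at 38.56 and *Dsc2* at 29.9 were in the lower part. The median of the 10 members was 957.5 per kilobase. Together they held 1.06% of all normalized counts.

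**Figure D1:**
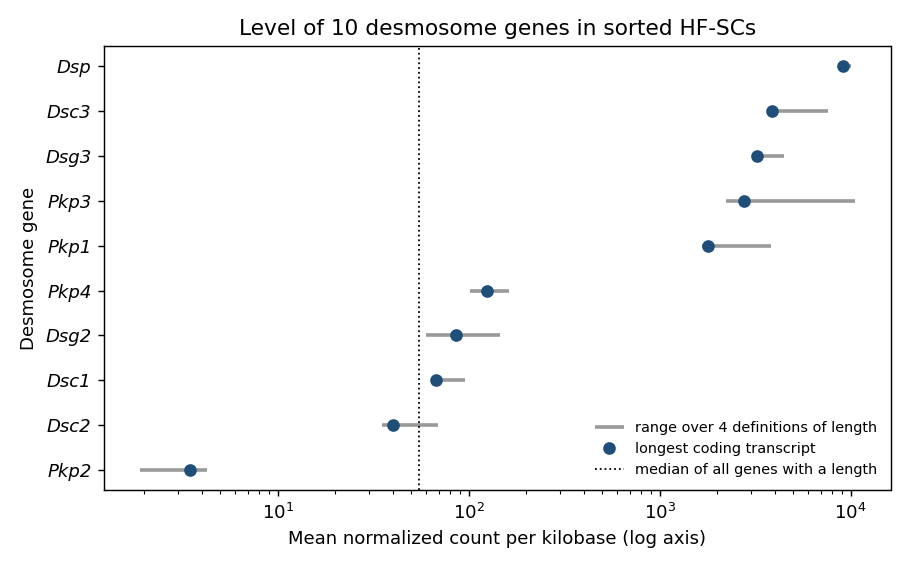
The mean normalized count per kilobase over 4 libraries is plotted on a log axis for each desmosome gene, with grey bars for the range over 4 definitions of gene length and a dotted line at the all-gene median of 54.9. *Dsp*, *Dsc3*, *Dsg3*, *Pkp3* and *Pkp1* lie at 1664 per kilobase or higher under every length plotted, and *Pkp2* lies at 4.25 or lower.

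*Dsp*, which anchors the junction to keratin, had the highest mean, and the highest level per kilobase except with the median transcript length, where *Pkp3* at 10523 was above *Dsp* at 10018. The median transcript length of *Pkp3* was 768 bases, shorter than its longest coding sequence of 2469 bases, so that value rests on short annotated transcripts. The mean normalized count of *Dsp* was 86652, rank 12 of 17044 genes, and its level per kilobase was 9085, at percentile 99.44 of genes with a length. The gene lies on GRCm38.p6 at chr13:38151294-38198577. *Jup*, plakoglobin, which binds the cadherin tails and is shared with adherens junctions, had a mean of 29154 and a level per kilobase of 9096. The ratio of *Dsp* to *Jup* per kilobase was therefore 0.999, but it was 1.99 when all annotated exons were merged into the length and 0.769 over coding length, so the order of the pair depended on the length used.

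Of the plakophilins, *Pkp3* and *Pkp1*, the isoforms of stratified epithelium, were abundant and the others were not. *Pkp3* (chr7:141078229-141090511) had a mean of 8082 and a level per kilobase of 2769. *Pkp1* (chr1:135871394-135919207) had a mean of 8359 and a level per kilobase of 1790. These made up 59.1% and 38.2% of the family per kilobase. The order of this pair depended on the length used, since over coding length *Pkp1* held 52.6% and *Pkp3* 45.1%.

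*Pkp4*, a relative also found at adherens junctions (chr2:59160850-59355205), had a mean of 582, or 125 per kilobase, and made up 2.66% of the family. *Pkp2*, the plakophilin of heart and simple epithelia (chr16:16213345-16272712), had a mean of 10.1, or 3.46 per kilobase. It made up 0.0739% of the family, and 42 reads in all stood behind it. The *Pkp3* level per kilobase was 22.2-fold that of *Pkp4*, and that of *Pkp4* was 36.0-fold that of *Pkp2*.

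Among the desmocollins *Dsc3* dominated. Its mean was 20563, rank 53, and its level per kilobase was 3876, which made up 97.3% of the family. *Dsc1* had a mean of 254 and a level per kilobase of 67.2, or 1.69% of the family. *Dsc2* had a mean of 187 and a level per kilobase of 40.3, or 1.01%. The share of *Dsc3* was between 97.3% and 97.9% under every definition of length and without division by length.

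The desmogleins were dominated in the same way by *Dsg3*, the isoform of basal keratinocytes. Its mean was 13301, rank 100, and its level per kilobase was 3238, or 86.4% of the desmogleins. *Dsg2* had a mean of 493 and a level per kilobase of 85.6, or 2.28%. The remainder was mostly *Dsg1a* at 7.80% and *Dsg1b* at 3.46%, isoforms of the upper layers, whereas *Dsg1c* and *Dsg4* had means of 2.67 and 1.48. The *Dsg1* genes are related copies, among which reads could be split or left uncounted. The extent of this was not tested, so their separate values and the shares of the desmogleins are uncertain.

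All 9 desmosomal cadherin genes lie side by side on GRCm38.p6, within 643.6 kb of chromosome 18 that holds no other protein-coding gene. Along the chromosome the order was *Dsc3*, *Dsc2*, *Dsc1*, *Dsg1c*, *Dsg1a*, *Dsg1b*, *Dsg4*, *Dsg3* and *Dsg2*. The high levels were at *Dsc3*, the first gene, and at *Dsg3*, the gene before the last. Their immediate neighbours stood far lower, with *Dsc3* 96.2-fold above *Dsc2* and *Dsg3* 37.8-fold above *Dsg2* per kilobase.

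**Figure D2:**
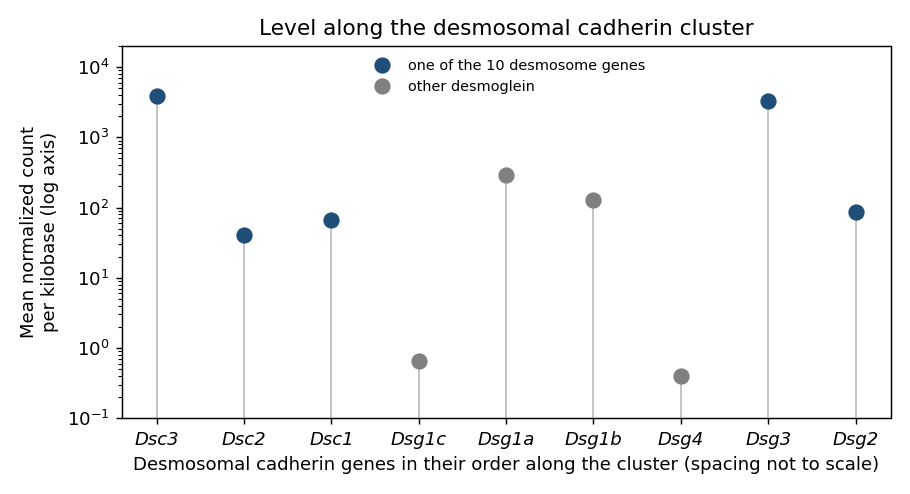
The mean normalized count per kilobase over 4 libraries is plotted on a log axis for the 9 desmosomal cadherin genes in chromosomal order, with equal spacing in place of distance. *Dsc3* at 3876 and *Dsg3* at 3238 stand above all genes between them, of which *Dsg1a* is highest at 292.

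The isoforms grouped here as basal, *Dsg2*, *Dsg3*, *Dsc2* and *Dsc3*, were then set against *Dsc1*. Summed per kilobase, they reached 7240, which was 107.7-fold the *Dsc1* level. Nearly all of this came from 2 genes, since *Dsc3* was 57.6-fold and *Dsg3* 48.1-fold above *Dsc1*. *Dsg2* was at 1.27 times *Dsc1* and *Dsc2* at 0.599 times, so the isoforms grouped as basal were not alike in level. No desmoglein of the upper layers stood on the side of *Dsc1* in this sum. *Dsg1a* at 292 and *Dsg1b* at 129 per kilobase, both above *Dsc1*, were left out of it. Within the desmocollins alone, *Dsc2* and *Dsc3* together were 58.25-fold *Dsc1*. *Dsc2* stayed below *Dsc1* under each length used, at 0.526 to 0.735 times its level, whereas *Dsg2* fell to 0.888 times *Dsc1* when all annotated exons were merged.

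Suprabasal transcripts covered a wide range in the same RNA. *Krt10*, a keratin of differentiating layers, had a mean of 7246 and *Krt1*, its partner, one of 2033. The basal keratins *Krt5*, *Krt15* and *Krt14* had means of 146090, 119883 and 90971. Per kilobase *Krt10* reached 3461 and *Krt1* 831, beside 67.2 for *Dsc1* and 61.2 for *Ivl*, a protein of the cornified envelope and the lowest of the 7 suprabasal markers found by mean.

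Other genes of the junction were also measured. Of 8 further desmosome and cornified-junction genes, 6 had a mean above 50, beside 60.7% of all genes with a mean above 0, and *Dsg1c* and *Dsg4* did not. *Perp*, a tetraspan protein of desmosomes, had a mean of 26659, and the plakins *Ppl* and *Evpl* had means of 4461 and 3783. All 5 adherens junction genes had means of 1443 or higher. *Cdh1*, E-cadherin, had a mean of 7946, *Ctnna1* one of 10624, *Ctnnb1* one of 12071, *Ctnnd1* one of 5349 and *Cdh3*, P-cadherin, one of 1443. Per kilobase the levels of *Dsc3* and *Dsg3* were 2.16-fold and 1.81-fold that of *Cdh1*.

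Values of single libraries could be given for the 5 members with a mean of 650 or below. For *Dsp*, *Dsc3*, *Dsg3*, *Pkp1* and *Pkp3* the means were too large to split, and no spread between libraries is known. At least 23158 reads lay behind each of them, which puts the counting error at 0.657% or less, but this covers counting only and not the difference between animals.

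*Dsc1* was read 133, 367, 292 and 250 times in libraries A, B, C and D. Its normalized counts were 186, 380, 248 and 202, with 95% exact Poisson intervals of 155 to 220, 342 to 421, 220 to 278 and 178 to 229. Library B stood above the others beyond counting error, and its value was 2.05-fold that of library A. The median ratio of highest to lowest library was 1.34 among 3001 genes with a mean of 100 to 300, and *Dsc1* was at percentile 95.1 of these ratios.

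*Dsc2*, the other minor desmocollin, had normalized counts of 195, 167, 154 and 230 from 140, 161, 181 and 285 reads. Its highest library was D and its lowest was C, so its order was unlike that of *Dsc1*. The ratio of highest to lowest was 1.501, at percentile 74.4 of the same genes.

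*Dsg2* had normalized counts of 409, 439, 680 and 446 from 293, 424, 802 and 551 reads. Library C was apart from the rest, with an interval of 634 to 729. The ratio of highest to lowest was 1.66, at percentile 94.1 among 2270 genes with a mean of 300 to 650, whose median ratio was 1.24.

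*Pkp4* had normalized counts of 521, 527, 606 and 674 from 373, 509, 714 and 833 reads. The ratio of highest to lowest was 1.29, at percentile 61.9, and its values followed the order of relative depth of the libraries given above. That order was found for 3.04% of 5271 genes with a mean of 100 to 650, and the part of depth in it was not tested. *Pkp2* had 4, 17, 11 and 10 reads, or 5.58, 17.6, 9.33 and 8.09 normalized counts, and all 4 counting intervals overlapped.

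**Figure D3:**
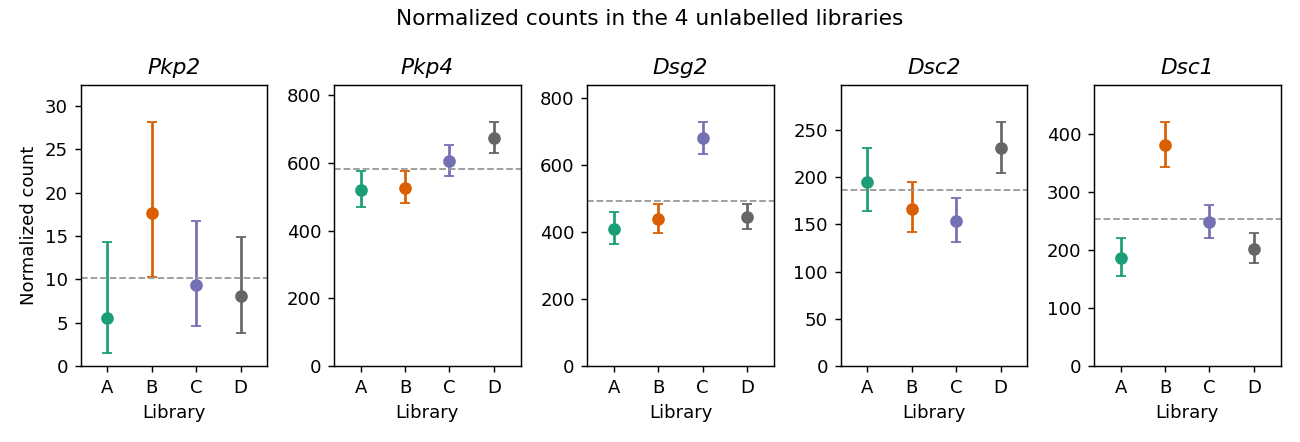
Normalized counts of *Pkp2*, *Pkp4*, *Dsg2*, *Dsc2* and *Dsc1* are plotted for the unlabelled libraries A to D, each panel from 0, with 95% exact Poisson intervals and a dashed line at the mean of the 4 libraries. *Dsc1* is highest in B at 380, *Dsg2* in C at 680, and *Dsc2* in D at 230.

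Neighbours in the lower part of the order could be compared library by library. *Dsc1* was above *Dsc2* per kilobase in each library, with *Dsc2* at 0.858, 0.358, 0.505 and 0.929 times *Dsc1* in A to D. Their counting intervals overlapped in A and D, so the pair was separated in only 2 of 4 libraries. The direction in these 2 also turned with the length, since over coding length *Dsc2* was at 1.03 and 1.12 times *Dsc1* in A and D and at 0.431 and 0.609 times in B and C. *Dsg2* was at 1.44, 0.756, 1.80 and 1.44 times *Dsc1*, above it in A, C and D and below it in B, with no overlap of intervals. With the median transcript length *Dsg2* was above *Dsc1* in B too, at 1.21 times. With all annotated exons merged *Dsg2* was at 1.01, 0.527, 1.25 and 1.01 times *Dsc1* in A to D, so the pair was nearly even in A and D. Per kilobase of the longest transcript the order of the pair turned with library B, and without B the ratio over the remaining libraries was 1.58 in place of 1.27. Per kilobase of the longest transcript *Pkp4* was above *Dsg2* in A, B and D, and their intervals overlapped in C. This order depended on the length too. With the median transcript length the mean over all libraries put *Pkp4* at 131 and *Dsg2* at 137 per kilobase.

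The levels of other cell types' markers are given beside *Dsc1*, beginning with suprabasal cells. Of the 8 listed suprabasal markers 7 were found, and 4 of these were low enough to split. *Calm4* had normalized counts of 293, 696, 454 and 372 in A to D, *Krtdap* 423, 710, 394 and 461, *Lor*, a protein of the cornified envelope, 187, 1183, 623 and 422, and *Ivl* 79.6, 154, 114 and 116. All 4 were highest in B, as *Dsc1* was, beside 26.2% of 5271 genes with a mean of 100 to 650, and none was at 0 in any library. *Krtdap* was lowest in C, not in A. Their sum was 983, 2743, 1585 and 1371, in the same order of libraries as *Dsc1*. That order was found for 5.56% of the same genes. The peak in B was not particular to suprabasal markers, since 7 of 11 markers of other cell types in this range of means were also highest there, among them *Dct* of melanocytes, with the full order of *Dsc1*, and *Tchh* of the inner root sheath. The summed inner root sheath list was instead highest in D, at 273 beside 244 in B. The part of any of these cells in the *Dsc1* values was not tested.

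**Figure D4:**
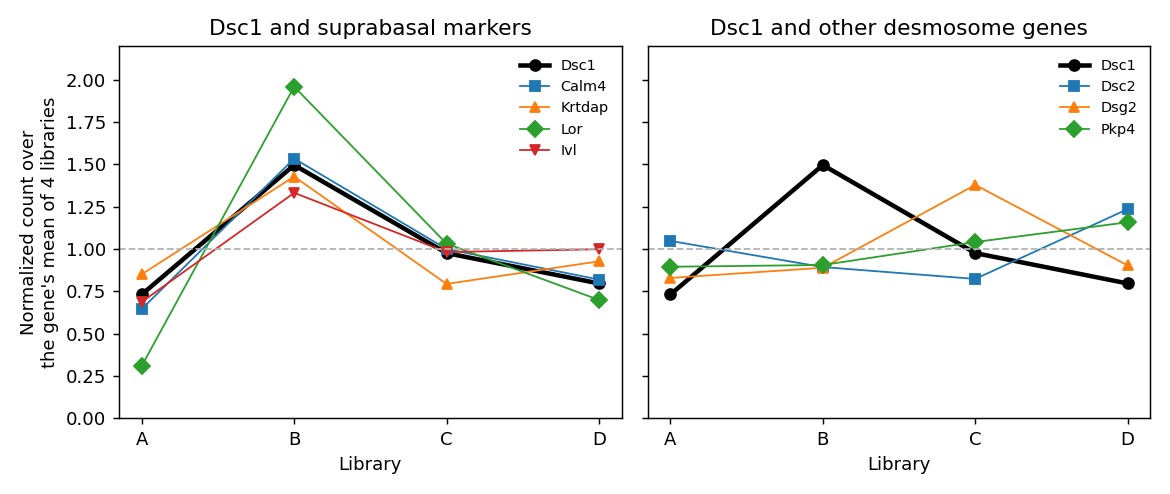
Normalized counts in libraries A to D are plotted as a ratio to each gene's mean over the 4 libraries, with *Dsc1* and the suprabasal markers *Calm4*, *Krtdap*, *Lor* and *Ivl* on the left and *Dsc1* with *Dsc2*, *Dsg2* and *Pkp4* on the right. *Dsc1* and the suprabasal markers peak in B, whereas *Dsg2* peaks in C and *Dsc2* and *Pkp4* in D.

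*Dsg1b*, a desmoglein of the upper layers, did not share this order. Its normalized counts were 589, 408, 499 and 558, lowest in B, where *Dsc1* was highest. *Dsg1c*, the other *Dsg1* gene that could be split, had 1.40, 5.17, 1.70 and 2.43 normalized counts, highest in B, but on 11 reads in all. The caution on related copies given above holds for both.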

How the data were processed

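Total RNA of sorted HF-SCs was sequenced by the authors as paired-end reads from a strand-marking kit, in 2 libraries of control and 2 of induced mice. Per the labels and the methods, reads were aligned with HISAT2 2.1.0, converted with SAMtools 1.3.1, counted per gene with HTSeq and compared with DESeq2. Not given in the sources used here are the version of DESeq2, the annotation and the strand setting of the counting. The labels give mm10 and the methods NCBI37/mm10, so the files' build is uncertain. The deposited signal is the mean normalized count of each gene over the 4 libraries, made by the authors by dividing counts by size factors. The 5 other columns hold the authors' comparison of induced with control cells (log2 fold change, standard error, test statistic and p-values before and after adjustment) and were not used. The number of columns of single samples was 0, and the absolute depth per library is unknown.

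Steps of the lowest means gave the relative depth of each library, and a search over whole reads found the combination that gave each mean to its 15 written digits. On simulated data, 476 of 476 split genes were right. Size factors recomputed from the reads found differed from the steps by -2.85% to 2.78%. Recomputed, library C at 1.212 was above D at 1.201, so the order of depth of C and D is not settled. Intervals are 95% exact Poisson intervals and, like any limit from reads, cover counting error only. Lengths, 3′UTRs and match positions came from GENCODE vM1 on NCBIM37, matched for 15543 of 17044 genes, 14644 by symbol and 899 by a synonym. Places of whole genes came from the RefSeq table of GRCm38.p6, and no coordinate was converted. No sequence of the chromosome 18 genes is printed. Percentiles are among all genes with a length or all genes of a stated range of means. Alternatives were other lengths, a mean over 50, other sets of isoforms and other 3′UTRs; leaving out each library, other lengths within single libraries and the 3′UTR of the longest coding transcript were added after the data were seen. The genes named are all members, the genes of the junction and keratin lists, and the most abundant gene of each marker list. The suprabasal markers named by library and *Cd34*, *Fgf18* and the lists of the last section fall outside this and were chosen after their values were seen. The members and lists were chosen with earlier results of these data known. Withheld items are left out. Python 3.11.15, numpy, pandas, scipy, numba and matplotlib were used.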

Additional observations from a re-analysis of the deposited data

How the results depend on the processing

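The summed basal isoforms stayed far above *Dsc1* in all 6 alternatives. The ratio of 107.7 was 104.9 with merged exons and 106.4 without *Dsg2*, and it was 133.2 with the median transcript length, 129.1 over coding length, 136.1 without division by length and 58.25 for *Dsc2* and *Dsc3* alone. *Dsc1* ranked 8 of 10 and moved to rank 7 with merged exons, where *Dsg2* fell below it. The share of *Pkp3* among the plakophilins, 59.07%, was 55.84% with merged exons and 82.01% with the median transcript length, which is only 768 bases for *Pkp3*. It was 45.07% over coding length and 47.45% without division by length, and in these 2 settings *Pkp1* was ahead of it. The share of *Dsg3* among the desmogleins, 86.43%, was 84.26% over coding length and 83.26% without division by length. Desmosome genes with a seed match numbered 3, and 6 with bases 2 to 7; the shortest 3′UTR gave 3, of other genes. The level per kilobase of single members changed with the length by more than its counting error in 25 of 30 alternatives. The reads were the same in each, so counting error serves only as a yardstick here, and it is narrow for genes with many reads. Leaving out 1 unlabelled library gave 0.517 to 0.743 for *Dsc2* over *Dsc1*, 1.10 to 1.58 for *Dsg2*, 1.65 to 2.29 for *Pkp4* and 0.0466 to 0.0543 for *Pkp2*.

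Within single libraries, *Dsc2* was above *Dsc1* in 0 of 4 with the longest transcript or merged exons, in 1 with the median transcript length and in 2 over coding length or without division by length.

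No paired analysis was possible because the deposited value is a mean over all libraries and the libraries split out of it carry no label. For the same reason no replicate of a group could be left out. The split gave 1 combination for each of 13442 genes, so taking the nearest of several changed nothing. Reads limit *Pkp2*, *Dsg1c* and *Dsg4*, with 42, 11 and 7 reads in all.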

Other observations

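The unlabelled libraries differed in transcripts of other cell types as well as in *Dsc1*. Library B was highest for each of the 5 melanocyte genes, whose summed normalized counts were 342, 2020, 691 and 843 in A to D. The 5 sebaceous genes that could be split had sums of 444, 856, 1077 and 891, and 4 myeloid genes had sums of 659, 1187, 1293 and 763. Both sums were lowest in A, but not each gene was, since *Cidea*, *Lyz2* and *Ptprc* were lowest in D and *Cd207* in C. *Ly6a*, the Sca1 gene of the sort, had normalized counts of 60.0, 179, 159 and 146, lowest in A. The inner root sheath list had sums of 154, 244, 218 and 273, the endothelial list 69.8, 161, 137 and 172, the 2 fibroblast genes that could be split 148, 279, 183 and 218, and the muscle list 2.79, 10.3, 16.1 and 19.4. Library A thus had the lowest sum of each of these lists and the lowest value of *Dsc1*, *Dsg2*, *Pkp2* and *Pkp4*, but not of *Dsc2* or *Dsg1b*. Within the inner root sheath, fibroblast and muscle lists, *Krt28* and *Ckm* were lowest in B, *Pdgfra* in C, and *Krt71* and *Krt73* in D. Library A was also the shallowest of the 4. The libraries cannot be tied to control or induced mice here, and the part of other cells in any desmosome value was not tested.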
